A study of Mus musculus with 148 samples.

Results

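*Notch2*, *Lef1*, *Tet2*, *Sox2* and *Fgf2* are stem cell and developmental regulators encoded on mouse chromosome 3. Allelic expression of these genes was examined in embryonic stem cells in which Xist RNA was induced from a chromosome 3 transgene. They were taken by name, and a gene was analysed where either of the 2 deposited chromosome 3 tables of differentiating cells lists it. Of the 5 genes, 3 (*Notch2*, *Lef1* and *Tet2*) were listed, in both tables, and 2 (*Sox2* and *Fgf2*) were listed in neither. The tables hold 538 and 517 genes, 498 of them shared, so that the listed members are 3 of 557 genes in all.

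The study measured how far different pathways contribute to silencing by Xist RNA. All cells used here derive from the line iXist-Chr3, XY mouse embryonic stem cells from a cross of 129S and Cast. In this line doxycycline switches on several copies of *Xist* that were inserted, without targeting, into the Cast chromosome 3. All were cultured for 3 days in differentiation medium, without doxycycline (NoDox) or with doxycycline for 72 h (Dox), and, apart from a pair named below, described as chromatin-associated RNA (ChrRNA-seq), which also captures unspliced transcripts. The series lists 148 samples, of which 20 libraries are used here. The first table holds 12 libraries, 3 per state from WT cells and 3 per state from *Suz12* null cells. The deleted gene, *Suz12*, encodes a core subunit of Polycomb repressive complex PRC2, which methylates histone H3 at lysine 27. The second table holds 8 libraries, namely 1 NoDox and 1 Dox library of WT cells and a NoDox and a Dox library from each of 3 *Lbr* null clones (4C7A, 4C8E and 4F9F), in which CRISPR removed the whole locus of the lamin B receptor. That WT pair is titled mRNA in the labels, although its library type is given elsewhere as chromatin RNA, and it is called the WT pair below. The replicates of the *Suz12* table come from a single null line, and *Suz12* and *Lbr* themselves lie on other chromosomes and are not listed, so neither deletion could be checked in these values.

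Xist RNA coats the chromosome from which it is transcribed and recruits silencing factors, among them SPEN and the Polycomb complexes. The lamin B receptor has been proposed as a further one. Polycomb complexes modify histones and, apart from X inactivation, keep many developmental genes repressed in stem cells, often at promoters rich in CpG. The genes examined include the receptor NOTCH2, the transcription factors LEF1 and SOX2, the signalling ligand FGF2 and the enzyme TET2, which all act in the choice between self-renewal and differentiation.

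Each table value is a share of allele-specific RNA, Xi/(Xi + Xa), in which Xi stands for the transgene-bearing Cast copy and Xa for the 129S copy. A ratio of 0.5 means equal RNA from both alleles, and a fall on Dox means less RNA from Xi relative to Xa. The ratio gives no total expression of a gene, and in a bulk culture fewer cells with a silenced allele and less silencing per cell cannot be told apart. According to the methods, a gene needed 10 or more reads over strain variants across the samples to receive a ratio. Reads per gene are not listed, and the depth above that floor is therefore unknown. Over all genes of the first table, the median ratio of the NoDox libraries lay between 0.470 and 0.475. Among the Dox libraries the third of each line stood apart, since the library medians were 0.291, 0.287 and 0.322 in WT and 0.319, 0.329 and 0.370 in *Suz12* null cells. The tested changes and differences of the members from this table are therefore also given without the third library of every group. Their ranks, classes, shares of Xi signal left and comparisons with nearby genes rest on all libraries. In the second table the Dox medians were 0.249 in the WT pair and 0.255, 0.253 and 0.264 in the *Lbr* null clones. The only stem cell marker on chromosome 3 that was chosen as a check, *Sox2*, has no ratio, and of 5 fibroblast markers chosen to look for feeder cells (*Postn*, *S100a4*, *S100a6*, *Vcam1* and *Sfrp2*) 0 were listed, so the tables do not show the cell type.

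The first question was how far Xist RNA lowered the Xi share of each regulator in WT cells. *Notch2*, *Lef1* and *Tet2* all fell on Dox and all reached the study's class of high silencing, in which z, the change of the mean ratio from NoDox to Dox, lies below -0.2. *Notch2* encodes a cell surface receptor whose intracellular part is cut free on ligand binding and enters the nucleus. Its ratio was 0.446, 0.433 and 0.444 in the NoDox libraries and 0.124, 0.115 and 0.158 in the Dox libraries. Every Dox library was lower than every NoDox library, with z of -0.308 (SE 0.0247, limma adjusted p = 1.78e-06). *Lef1* encodes a transcription factor that binds β-catenin and carries WNT signals to target genes. Its ratio was 0.628, 0.634 and 0.591 without Dox and 0.322, 0.284 and 0.377 with Dox. The groups did not overlap, and z was -0.290 (SE 0.0224, limma adjusted p = 1.51e-06). *Tet2* encodes a dioxygenase that oxidises methylated cytosine and so takes part in DNA demethylation. Its ratio was 0.434, 0.452 and 0.463 without Dox and 0.186, 0.194 and 0.245 with Dox. All 3 Dox libraries were again below all 3 NoDox libraries, with z of -0.241 (SE 0.0270, limma adjusted p = 1.46e-05). Lower ratios on Dox were common on this chromosome, and the 3 of 3 members stand against 85.5% of the 538 genes called lower by limma (460 genes) and against 39.6% in the high class. By size of z, *Notch2* ranked 68th of 538 genes from the strongest, *Lef1* 92nd and *Tet2* 156th, whereas the median z over all genes was -0.158. Without the third library of every group, z was -0.320 for *Notch2*, -0.328 for *Lef1* and -0.253 for *Tet2*, and all 3 remained called.

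**Figure D1:**
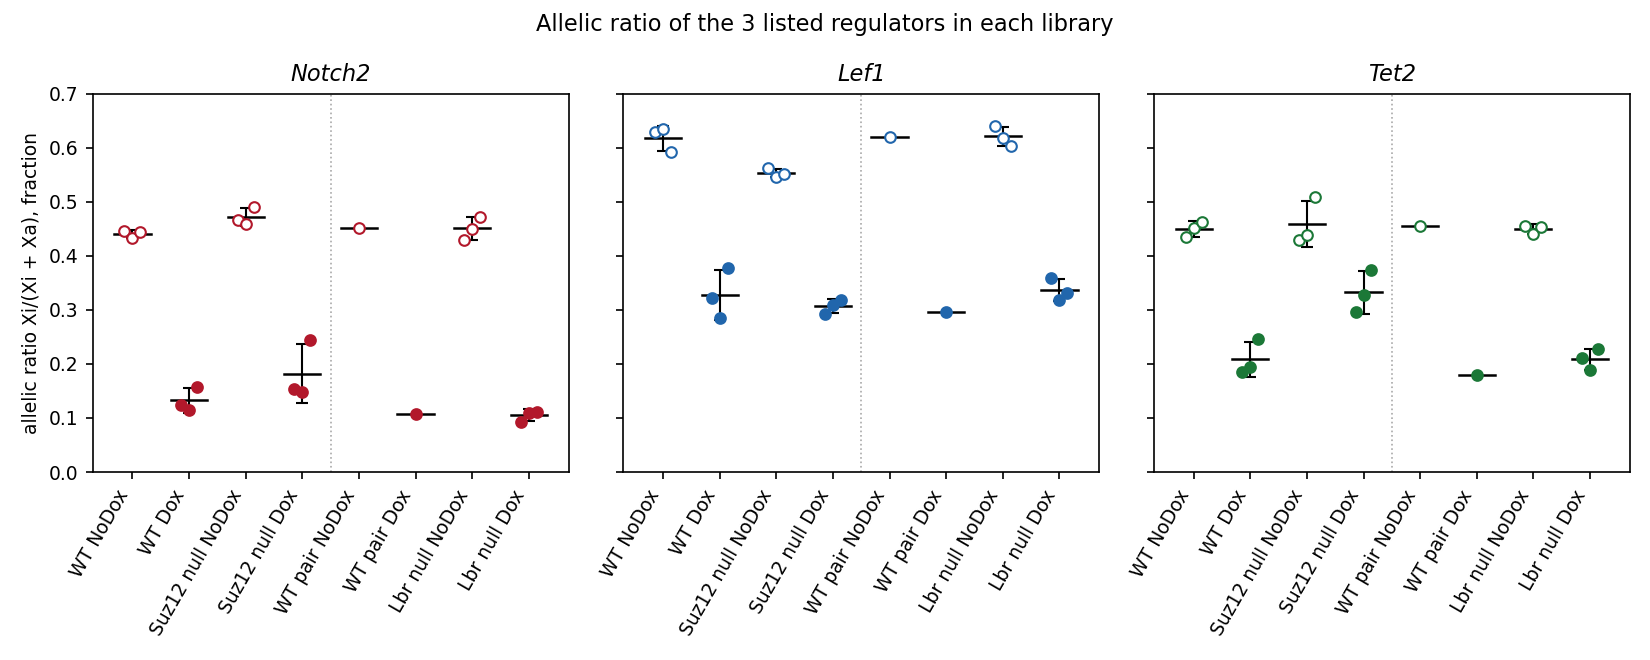
Allelic ratio Xi/(Xi + Xa), a fraction, of *Notch2*, *Lef1* and *Tet2* in the 8 groups, with 1 point per library, open for NoDox and filled for Dox. Horizontal lines are group means and bars the SD where a group has 3 libraries, and the dotted line separates the 2 tables. *Tet2* in *Suz12* null Dox libraries lies at 0.295 to 0.374, above the WT Dox libraries at 0.186 to 0.245.

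The members differed in where they started and in how much of the Xi signal was left. *Lef1* was the one with more RNA from the Cast allele before induction, with a mean NoDox ratio of 0.618 ± 0.0231 (SD, n = 3), against 0.441 for *Notch2* and 0.450 for *Tet2*. Because z depends on the starting ratio, the Xi to Xa ratio of each Dox library was also expressed as a percentage of the mean Xi to Xa ratio without Dox. In WT cells 19.4% ± 3.83 (SD, n = 3) was left for *Notch2*, 30.5% ± 6.52 for *Lef1* and 32.4% ± 6.48 for *Tet2*, and 48.8% for the median gene. On this scale *Lef1* and *Tet2* lay within each other's spread. The *Notch2* libraries, at 18.0%, 16.5% and 23.8%, all lay below those of *Lef1* at 29.4%, 24.6% and 37.5%, by less than 1 percentage point between the nearest values.

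The *Suz12* null line shows how the same genes responded without PRC2 activity. *Notch2* and *Lef1* again fell into the high class, while *Tet2* fell less far and was classed as low silencing, with z between -0.05 and -0.2. The *Notch2* ratio in *Suz12* null cells was 0.466, 0.459 and 0.491 without Dox and 0.154, 0.147 and 0.244 with Dox. The third Dox library was the highest of its group and still below every NoDox library (z of -0.290, SE 0.0247, limma adjusted p = 4.54e-06). The *Lef1* ratio was 0.562, 0.546 and 0.552 without Dox and 0.293, 0.309 and 0.318 with Dox. These were narrow groups without overlap (z of -0.246, SE 0.0224, limma adjusted p = 6.1e-06). The *Tet2* ratio was 0.430, 0.438 and 0.508 without Dox and 0.295, 0.328 and 0.374 with Dox. The third library was the highest in both states, and the groups did not overlap (z of -0.126, SE 0.0270, limma adjusted p = 0.00172). All 3 members were called lower, against 73.2% of 538 genes (394), and 2 of the 3 were in the high class, against 29.7%. *Notch2* ranked 65th and *Lef1* 102nd of 538 genes by z in this line, whereas *Tet2* ranked 264th, next to the middle of the list. The share of the Xi to Xa ratio left was 25.3% ± 9.46 (SD, n = 3) for *Notch2*, 35.8% ± 2.16 for *Lef1* and 59.2% ± 10.6 for *Tet2*, and 59.0% for the median gene. Without the third libraries z was -0.312 for *Notch2*, -0.253 for *Lef1* and -0.122 for *Tet2*, all called.

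Whether silencing itself differed between *Suz12* null and WT cells was tested as the difference of the 2 z values. That difference was 0.115 for *Tet2* (SE 0.0381), 0.0434 for *Lef1* (SE 0.0317) and 0.0181 for *Notch2* (SE 0.0350), where a positive value means less silencing in *Suz12* null cells. *Tet2* had an unadjusted p of 0.0125 in limma and an adjusted p of 0.294, so its difference in silencing did not pass the test over 538 genes. The adjusted p was 0.519 for *Lef1* and 0.825 for *Notch2* in limma. In this comparison 0 of 3 members were called in either direction, against 0% of genes called lower and 0.372% called higher by limma (2 genes), with 5 lower and 66 higher at an unadjusted p under 0.05. Positive differences were the rule over the chromosome, at 425 of 538 genes (79.0%), with a median of 0.0343. Without the third libraries the difference was 0.131 for *Tet2* (limma adjusted p of 0.0955), 0.0750 for *Lef1* (0.188) and 0.00739 for *Notch2* (0.839). Over the alternatives on the ratio scale the *Lef1* difference ran from 0.0217 to 0.0750. When Suz12 null Dox replicate 3 alone was left out, the sign of the *Notch2* difference turned, to -0.0132.

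The difference of z was split into its NoDox and Dox ends, the second of which was examined after its values were seen. Before induction 0 of 3 members differed by limma between *Suz12* null and WT cells, as did 0% of 538 genes in the lower and 0% in the higher direction (10 lower and 19 higher at an unadjusted p under 0.05). *Lef1* came nearest by p, and its NoDox ratios in *Suz12* null cells, at 0.546 to 0.562, were all below those of WT cells, at 0.591 to 0.634. The difference was -0.0645 (SE 0.0224, unadjusted p = 0.0159, adjusted p = 0.589 in limma) and -0.0771 without the third libraries (adjusted p = 0.189 in limma). The *Notch2* NoDox ratios did not overlap between the lines either, at 0.459 to 0.491 in *Suz12* null and 0.433 to 0.446 in WT cells. Their difference was 0.0312 (adjusted p = 0.861 in limma), and 0.0234 without the third libraries. With 3 libraries against 3, full separation reaches no exact permutation p below 0.1. The share of all genes whose lines separate in this way is not given here, so it is not read as a trait of the members. For *Tet2* the NoDox difference was 0.00885, and it turned to -0.0159 without Suz12 null NoDox replicate 3 and to -0.00927 without the third library of every group. On Dox, *Tet2* was the member that differed, with a ratio 0.124 higher in *Suz12* null than in WT cells (SE 0.0270, limma adjusted p = 0.0294), and every *Suz12* null Dox library was above every WT Dox library. The difference was 0.0494 for *Notch2* and -0.0211 for *Lef1*, which did not pass. So 1 of 3 members was called higher and 0 lower, against 7.62% of genes called higher (41) and 0% called lower by limma, with 128 higher and 6 lower at an unadjusted p under 0.05. The *Tet2* call was lost in 4 of 12 fits that left out 1 library. All 4 left out a Dox library, and leaving out a NoDox library does not change the size of this difference. Its adjusted p in limma was 0.115 without WT Dox replicate 1, 0.115 without WT Dox replicate 2, 0.0538 without Suz12 null Dox replicate 2 and 0.0849 without Suz12 null Dox replicate 3, and it was 0.0258 without the third library of every group. The *Lef1* difference turned to 0.00358 without WT Dox replicate 3 and was -0.00206 without the third libraries, where that of *Notch2* was 0.0308. Over the alternatives on the ratio scale the *Notch2* difference on Dox ran from 0.0181, without Suz12 null Dox replicate 3, to 0.0666, without Suz12 null Dox replicate 2, and was called in none. The number of genes called higher moved with single libraries too, from 41 to 1 without WT Dox replicate 1 or 2 and to 85 without WT Dox replicate 3. It was 30 without Suz12 null Dox replicate 1, 19 without Suz12 null Dox replicate 2 and 6 without Suz12 null Dox replicate 3. NoDox libraries enter this comparison only through the shared estimate of the spread. The number was 21 without WT NoDox replicate 1 or 2 and 24 without WT NoDox replicate 3. It was 29 without Suz12 null NoDox replicate 1, 17 without Suz12 null NoDox replicate 2 and 26 without Suz12 null NoDox replicate 3.

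The *Lbr* null clones carried the question to a factor that tethers Xist RNA to the nuclear lamina. *Notch2*, *Lef1* and *Tet2* all fell on Dox in the clones and were all in the high class. In clones 4C7A, 4C8E and 4F9F the *Notch2* ratio was 0.429, 0.450 and 0.472 without Dox and 0.0918, 0.110 and 0.112 with Dox, and in the WT pair it went from 0.450 to 0.107. The clones lay around the WT pair in both states, and z in the clones was -0.346 (SE 0.0161, limma adjusted p = 9.07e-06). The *Lef1* ratio was 0.640, 0.618 and 0.604 without Dox and 0.358, 0.318 and 0.332 with Dox, and 0.619 and 0.295 in the WT pair. All 3 clones were above the WT Dox library and far below the NoDox libraries (z of -0.284, SE 0.0171, limma adjusted p = 2.12e-05). The *Tet2* ratio was 0.455, 0.440 and 0.453 without Dox and 0.211, 0.188 and 0.227 with Dox, and 0.456 and 0.180 in the WT pair. The Dox values of the clones were again all above that of the WT pair and did not overlap the NoDox values (z of -0.241, SE 0.0151, limma adjusted p = 2.37e-05). The 3 of 3 called lower compare with 92.5% of 517 genes (478), and the 3 of 3 in the high class with 47.8%.

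Silencing in the *Lbr* null clones was then set against that of the WT pair, which has 1 library per state and was assumed to vary like the clones. That pair is titled mRNA, so genotype and library type may differ together. With 1 WT library per state, an absence of calls does not show that silencing was equal. The difference of z was -0.00201 for *Notch2* (SE 0.0323), 0.0394 for *Lef1* (SE 0.0342) and 0.0342 for *Tet2* (SE 0.0302). Of the 3 members 0 were called in limma in either direction, as were 0% of 517 genes lower and 0% higher, with 14 lower and 11 higher at an unadjusted p under 0.05. The *Notch2* value turned to 0.00531 when the clone of replicate 3 was left out. The share of the Xi to Xa ratio left in the clones was 14.3% ± 1.68 (SD, n = 3) for *Notch2*, 31.0% ± 2.84 for *Lef1* and 32.3% ± 3.80 for *Tet2*, in the same order as in WT cells, and 40.9% for the median gene. In the WT pair it was 14.6%, 25.8% and 26.3%, and 38.6% for the median gene. The 2 tables were processed separately, so values are compared across them only as a description.

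The 3 genes lie at different distances from the transgene, *Notch2* on its centromeric side and *Lef1* and *Tet2* on its telomeric side. The positions follow the deposited tables (mm10, counting from 1), and distances run from a gene's midpoint to the integration site that the study mapped. *Lef1* (chr3:131110297-131224357, plus strand) lies 5.35 Mb from the transgene, *Tet2* (chr3:133463677-133544390, minus strand) 7.69 Mb and *Notch2* (chr3:98013538-98150367, plus strand) 27.7 Mb. The member farthest from the transgene was thus the one with the lowest Xi share on Dox in each line. The authors' RPKM was 24.2 for *Lef1*, 43.8 for *Tet2* and 15.4 for *Notch2*, all above the median gene at 10.8, and these levels rank 125th, 63rd and 206th of 538. The genes within 5 Mb of each member were examined to see whether its value was usual for its surroundings. Around *Lef1* the median z of 40 genes in WT cells was -0.246, and 15 of them had a stronger z than *Lef1*. Around *Tet2* the median of 43 genes was -0.216, and 18 were stronger. Around *Notch2* the median of 69 genes was weaker, at -0.168, and 10 were stronger. In *Suz12* null cells the medians were -0.211 around *Lef1*, -0.188 around *Tet2* and -0.130 around *Notch2*, and 29 of the 43 genes had a stronger z than *Tet2*, compared with 15 of 40 for *Lef1* and 13 of 69 for *Notch2*.

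**Figure D2:**
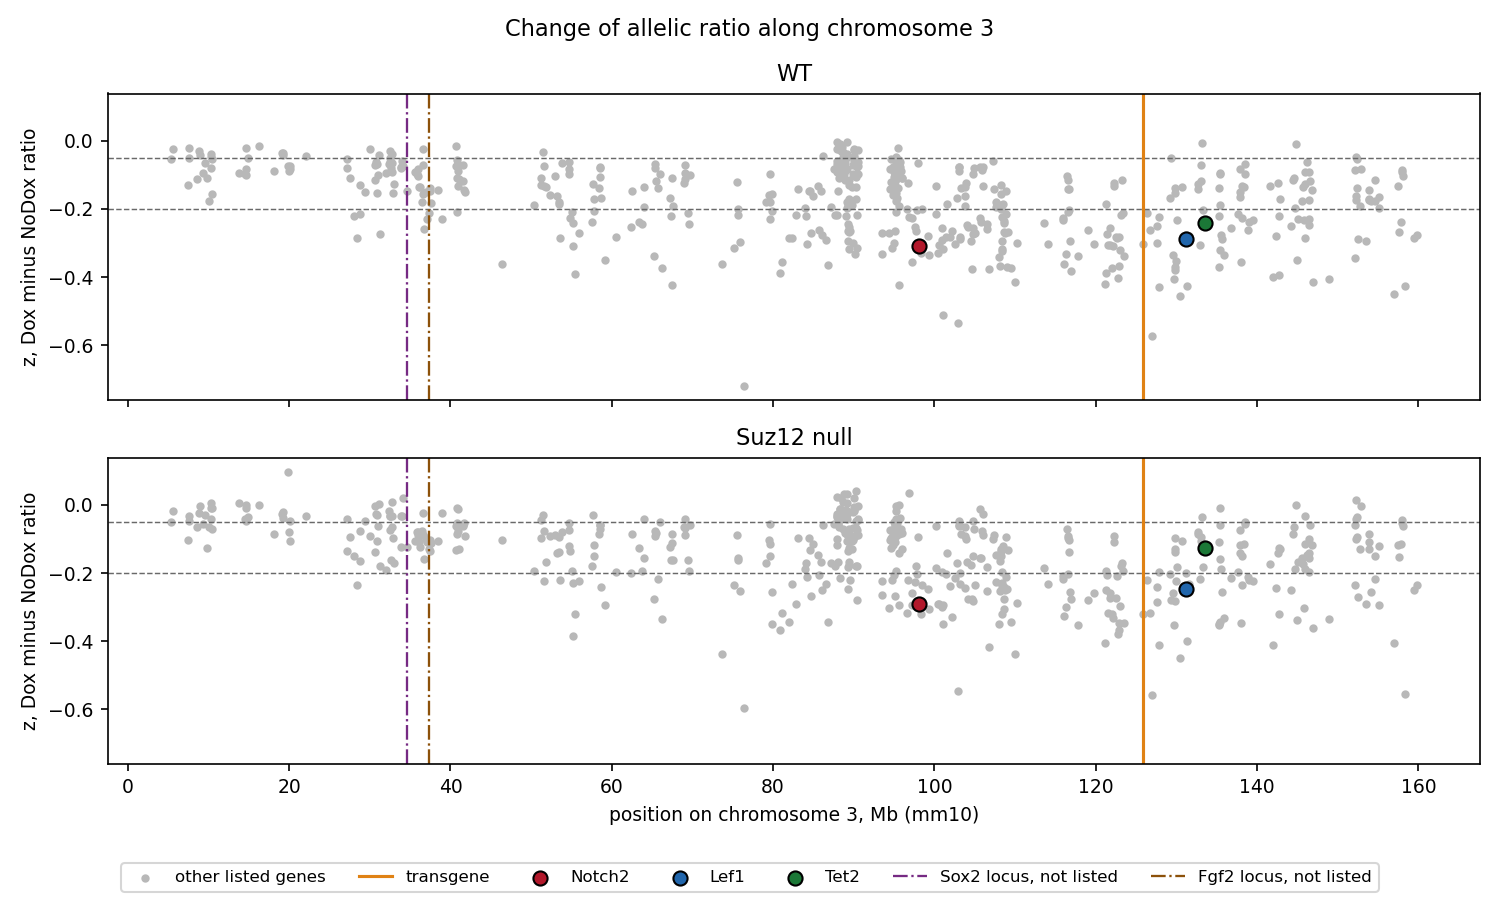
Silencing z, the change of the mean ratio from NoDox to Dox (n = 3 libraries per state), of 538 genes against position on chromosome 3 in Mb, for WT cells above and *Suz12* null cells below. Grey points are genes, dashed lines the class limits of -0.05 and -0.2, the orange line is the transgene, and the dash-dotted lines are the loci of *Sox2* and *Fgf2*, which have no ratio. *Tet2* lies at -0.241 in WT and at -0.126 in *Suz12* null cells, on either side of the limit of high silencing.

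The nearest listed gene on each side shows how sharply silencing can vary over short distances. *Hadh*, a mitochondrial enzyme of fatty acid oxidation, lies 0.0854 Mb from *Lef1* between midpoints and had a WT z of -0.278, and *Ostc*, a subunit of the oligosaccharyltransferase, lies 0.465 Mb away with z of -0.136. *Ppa2*, a mitochondrial pyrophosphatase 0.160 Mb from *Tet2*, had z of -0.204, and the kinesin gene *Cenpe*, 1.74 Mb away, -0.138. The largest contrast was at *Notch2*. *Phgdh*, which encodes the first enzyme of serine synthesis, lies 0.245 Mb away and had z of -0.330, while *Sec22b*, a vesicle trafficking gene 0.170 Mb away on the other side, had z of -0.0644. *Sec22b* was at 0.422, 0.400 and 0.435 without Dox and at 0.354, 0.348 and 0.362 with Dox in WT cells. *Notch2* in the same Dox libraries was at 0.115 to 0.158, well below *Sec22b* although the 2 genes start close together. All 6 neighbours were called lower on Dox in limma in WT, *Suz12* null and *Lbr* null cells, against 85.5%, 73.2% and 92.5% of all genes. The call of *Ostc* was lost in *Suz12* null cells without Suz12 null NoDox replicate 3 or Dox replicate 2, and in the *Lbr* null clones without replicate 2 or 3. Between *Suz12* null and WT cells limma called 0 of 6 neighbours for the difference of z, and the largest was that of *Hadh*, at 0.0777 (SE 0.0339, limma adjusted p = 0.367).

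*Sox2* and *Fgf2* could be described only through their surroundings. *Sox2*, the transcription factor gene at the core of the pluripotency network, lies at chr3:34649995-34652461 in RefSeq (GRCm38.p6, the build that mm10 names), 91.2 Mb from the transgene. All 2467 bases of it (100%) lie within *Sox2ot*, a long non-coding gene on the same strand that is listed. Counting by strand does not separate these 2 genes, so reads from *Sox2* and *Sox2ot* may be shared or dropped. The *Sox2ot* ratio in WT cells was 0.421, 0.389 and 0.422 without Dox and 0.282, 0.217 and 0.290 with Dox. The Dox libraries were lower throughout (z of -0.148, SE 0.0274, limma adjusted p = 0.000515), as they were in *Suz12* null cells (z of -0.123, adjusted p = 0.00222) and in the *Lbr* null clones (z of -0.213, adjusted p = 9.67e-05). *Fgf2*, the gene of a secreted growth factor, lies at chr3:37348477-37410106, 88.4 Mb from the transgene. Its 3′ end overlaps 5125 bases (8.32% of the gene) of *Nudt6*, a listed gene on the opposite strand. *Nudt6* was at 0.450, 0.450 and 0.412 without Dox and at 0.296, 0.287 and 0.286 with Dox in WT cells, again without overlap (z of -0.148, SE 0.0218, limma adjusted p = 0.000109). Its z was -0.137 in *Suz12* null cells and -0.239 in the *Lbr* null clones, both called lower. Between the lines, *Sox2ot* and *Nudt6* did not pass the limma test of a difference in silencing, with adjusted p of 0.791 and 0.854 for *Suz12* null and 0.966 for *Lbr* null cells. The genes within 5 Mb of *Sox2* had a median z of -0.0957 in WT cells (44 genes) and those around *Fgf2* -0.109 (45 genes), both weaker than the median of all genes. Neither value stands for *Sox2* or *Fgf2* themselves.

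Other chromosome 3 genes of the same pathways were taken from lists for the SOX2 locus with pluripotency-linked factors (called pluripotency-linked below), FGF and RAS signalling, WNT, Notch, DNA demethylation and developmental transcription factors. With the fibroblast markers these lists name 46 genes, of which 30 were listed in the first table and 29 in the second, with *Foxo1* in 2 lists. In WT cells limma called 26 of the 30 lower on Dox, against 85.5% of all 538 genes, and 12 were in the high class, against 39.6%, so the lists as a whole lay near the background. Those not called were *Il6ra*, *Rit1*, *Zfhx4* and *Mecom*. The call of *Skil*, from the pluripotency-linked list, was lost on the log2 scale and in 9 of 12 fits without 1 library (limma adjusted p up to 0.141), and that of *Zbtb10*, a developmental transcription factor, without the third libraries (0.0526). The medians of the lists are given as a description, since each covers few genes and their ranges overlap. WNT genes had the strongest median, with z of -0.281 over 6 listed genes, all 6 called and 5 in the high class. Apart from *Lef1* these included *Bcl9*, a β-catenin coactivator (-0.355), *Tnik*, a kinase of the TCF complex (-0.285), and *Wls*, which is needed to secrete WNT ligands (-0.278). *Pygo2* followed at -0.252, while *Tbl1xr1* fell little, with z of -0.0445. Pluripotency-linked genes had the weakest median, at -0.0970 over 7 genes, 6 called and 0 in the high class. Examples are *Foxo1*, a forkhead transcription factor (-0.159), *Trim33*, a ubiquitin ligase of TGF-β signalling (-0.138), and the histone methyltransferase gene *Setdb1* (-0.0970). Weaker still were *Gatad2b* (-0.0763), *Il6ra* (-0.0703) and *Skil* (-0.0421). Among Notch genes 4 of 4 were called, with a median of -0.205, and besides *Notch2* they were the metalloprotease gene *Adam15* (-0.246), *Fbxw7*, whose product marks the Notch intracellular domain for degradation (-0.163), and the coactivator *Maml3* (-0.136). FGF and RAS genes had a median of -0.148 with 6 of 7 called, from *Pdgfc*, a growth factor gene (-0.357), through *Spry1*, an inhibitor of FGF signalling (-0.182), to *Nras* (-0.0884). Developmental transcription factors had a median of -0.127 with 4 of 6 called, among them *Tbx15* (-0.335), while *Mecom*, not called, was the weakest (-0.0232). *Tet2* was the one listed gene of DNA demethylation and CXXC proteins.

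The same lists were followed in the null lines. In *Suz12* null cells 24 of 30 genes were called lower on Dox in limma, against 73.2% of all genes, with 8 in the high class, against 29.7%. In the *Lbr* null clones limma called 27 of 29, against 92.5%, with 15 in the high class, against 47.8%. Those not called were *Il6ra*, *Skil*, *Rit1*, *Pygo2*, *Zfhx4* and *Zbtb10* in *Suz12* null cells and *Gatad2b* and *Mecom* in the clones. *Pygo2*, a β-catenin coactivator gene, was at 0.646, 0.425 and 0.571 without Dox and at 0.207, 0.259 and 0.418 with Dox in WT cells, and at 0.469, 0.531 and 0.514 and at 0.481, 0.431 and 0.386 in *Suz12* null cells. Its libraries scattered widely, and the groups overlapped in *Suz12* null cells (z of -0.0715, limma adjusted p = 0.301) but not in WT cells (z of -0.252, limma adjusted p = 0.00297). The difference in silencing, 0.181, was the largest of the list genes and did not pass (SE 0.0867, limma adjusted p = 0.368). Some of the calls hung on single libraries. In *Suz12* null cells those of *Zbtb7b* and *Tbl1xr1* were lost in 4 and that of *Shc1* in 3 of the 12 fits without 1 library (limma adjusted p up to 0.0914, 0.0961 and 0.0951). Without the third libraries *Zbtb7b* and *Shc1* were not called either, and with a replicate block *Zbtb7b* and *Tbl1xr1* were not (limma adjusted p of 0.0819 and 0.0650). In the clones the calls of *Shc1* and *Rit1* were lost in 2 and those of *Skil*, *Zfhx4* and *Zbtb10* in 1 of the 3 fits without a clone (limma adjusted p up to 0.101). The WNT list again had the strongest median among the lists of more than 1 listed gene, with z of -0.236 in *Suz12* null cells (5 of 6 called) and -0.282 in the clones (6 of 6). For Notch genes it was -0.207 (4 of 4) and -0.231 (4 of 4), for FGF and RAS genes -0.113 (6 of 7) and -0.197 (7 of 7), for pluripotency-linked genes -0.0753 (5 of 7) and -0.156 (5 of 6), and for developmental transcription factors -0.0927 (4 of 6) and -0.150 (5 of 6). The medians over all genes were -0.122 and -0.191. For the difference in silencing between *Suz12* null and WT cells limma called 0 of 30 list genes, 27 of which had a positive difference, against 425 of 538 over all genes. Those with an unadjusted p under 0.05 in limma were *Spry1*, *Foxo1*, *Fbxw7*, *Trim33* and *Tet2*, all with an adjusted p of 0.294 or 0.340. Over all 538 genes, 66 were higher and 5 lower at that unadjusted limit. Before induction 0 of 30 were called in limma. *Mecom*, a zinc finger transcription factor gene, came nearest, with ratios of 0.0943, 0.0470 and 0.119 in WT NoDox and 0.204, 0.195 and 0.255 in *Suz12* null NoDox libraries. All 3 *Suz12* null values were higher (difference of 0.131, unadjusted p = 0.000426, adjusted p = 0.115 in limma), and the share of genes that separate in this way is not given. Between the *Lbr* null clones and the WT pair limma called 0 of 29 list genes. The gene *Bcl9* came nearest there, with a difference of -0.158 (SE 0.0622, limma adjusted p = 0.966).

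On Dox, 5 of the 30 list genes had a higher ratio in *Suz12* null than in WT cells by limma and 0 a lower one, against 7.62% of all genes higher (41 of 538), a number that fell to 1 without WT Dox replicate 1 or 2. Besides *Tet2* these were *Pdgfc* and *Spry1* of the FGF and RAS list and *Foxo1* and *Trim33* of the pluripotency-linked list. *Pdgfc* was at 0.0559, 0.0510 and 0.0987 in WT Dox and at 0.158, 0.172 and 0.257 in *Suz12* null Dox libraries. Its NoDox ratios were also all higher in *Suz12* null cells, at 0.499, 0.506 and 0.535 against 0.414, 0.437 and 0.424. The share of genes with such separation before induction is not given. The Dox difference of *Pdgfc* was 0.127 (SE 0.0254, limma adjusted p = 0.0263). *Spry1* was at 0.276, 0.305 and 0.309 in WT Dox and at 0.381, 0.381 and 0.421 in *Suz12* null Dox libraries. The groups did not overlap, with a difference of 0.0980 (SE 0.0167, limma adjusted p = 0.0155). The differences were smaller for *Foxo1*, 0.0765 (SE 0.0160, limma adjusted p = 0.0294), and *Trim33*, 0.0489 (SE 0.0121, limma adjusted p = 0.0380). Each of these calls was lost without WT Dox replicate 1 and without WT Dox replicate 2. Over the 12 fits that left out 1 library, the lost calls numbered 2 for *Pdgfc* (limma adjusted p up to 0.105), 2 for *Spry1* (up to 0.0874), 3 for *Foxo1* (up to 0.115) and 11 for *Trim33* (up to 0.153). For *Pdgfc*, *Spry1* and *Foxo1* these were all fits without a Dox library. Fits without a NoDox library do not change the size of the difference. *Foxo1* and *Trim33* were also not called without the third library of every group (limma adjusted p of 0.0604 and 0.0646). The largest difference of the list genes on Dox, 0.138 for *Pygo2*, was not called (SE 0.0613, limma adjusted p = 0.193), except without WT Dox replicate 3 (0.0434). *Lef1* was one of 6 list genes whose Dox difference was negative.

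**Figure D3:**
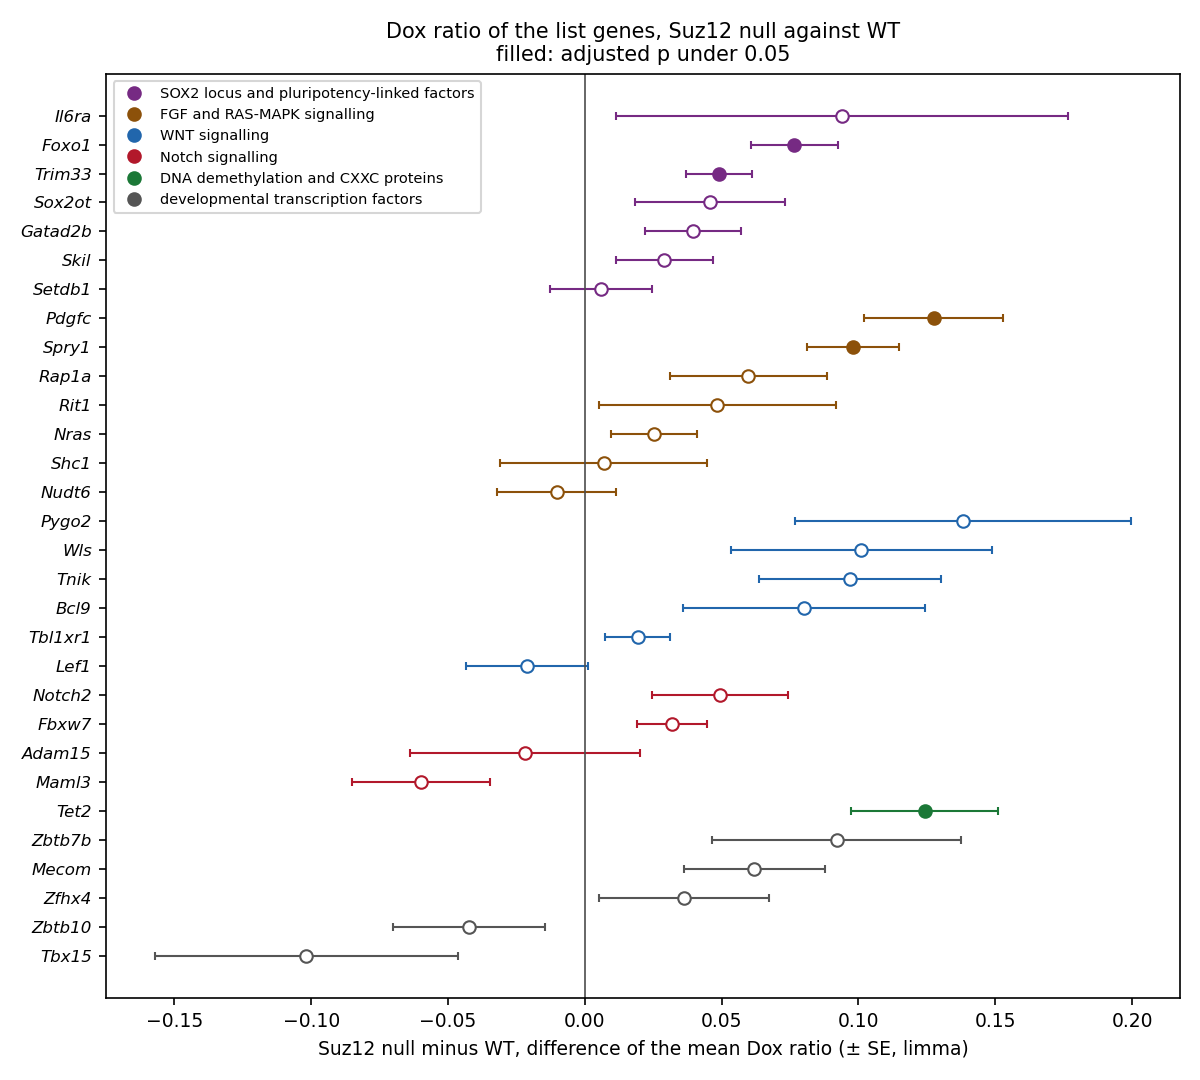
Difference of the mean Dox ratio, *Suz12* null minus WT (3 libraries each), with its SE from limma for 30 genes, coloured by list, with *Foxo1*, a gene of 2 lists, shown under the first. Filled points have an adjusted p under 0.05. *Tet2* (0.124), *Pdgfc* (0.127), *Spry1* (0.0980), *Foxo1* (0.0765) and *Trim33* (0.0489) are filled, and *Lef1* lies at -0.0211.

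Genes whose ratios most resembled each member were found by the mean absolute difference over all 20 libraries among 497 other genes listed in both tables. The closest to *Notch2* were *Ptgfrn*, a membrane protein gene (0.0169), and *Ptbp2*, a splicing regulator (0.0179), which lie 2.99 and 21.7 Mb from it, against 0.114 for the median gene. The closest to *Tet2* were *Wdr3* (0.0193) and *Fnip2* (0.0264), 33.4 and 54.0 Mb away, against a median of 0.0823. *Lef1* had no such close match, with *Ap1ar* at 0.0343 and *Rnpc3*, a gene of the minor spliceosome, at 0.0460, 3.34 and 17.5 Mb away, against 0.111 for the median gene. Because these genes were picked from the same libraries, a fall on Dox and a similar difference between the lines follow in part from the choice and are not tested here.

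The promoters of the members were compared for CpG, the dinucleotide that marks many Polycomb targets. RefSeq (GRCm38.p6) gave the 250 bases before the start of all 3 listed members at the positions given above, read on the gene's strand. CG was counted in them, a motif that reads the same on both strands, and it occurs in 92.1% of the 32851 promoters of the same length in the RefSeq table, with a median of 6. The *Tet2* stretch holds 51 CG (83.6% G and C), more than 99.9% of these promoters. The *Notch2* promoter holds 34 (72.0%), more than 96.5%, and the *Lef1* promoter 11 (66.4%), more than 64.4%. The *Tet2* stretch lies inside the RefSeq gene, which reaches position 133545136, so its rank among promoters is only a description. It falls in the first exon of longer predicted transcripts and is therefore not printed. The other 2, from the members that were in the high class in all 3 genotypes, are given from 5′ to 3′ to show how unlike their CpG content is, with each CG in capitals, for *Notch2* at chr3:98013288-98013537 and for *Lef1* at chr3:131110047-131110296, both on the plus strand.
Notch2: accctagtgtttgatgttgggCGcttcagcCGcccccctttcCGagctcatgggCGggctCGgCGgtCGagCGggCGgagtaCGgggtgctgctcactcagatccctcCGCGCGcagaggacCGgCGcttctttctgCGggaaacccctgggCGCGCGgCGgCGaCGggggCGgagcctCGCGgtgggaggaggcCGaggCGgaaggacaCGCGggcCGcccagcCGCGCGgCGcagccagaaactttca
Lef1: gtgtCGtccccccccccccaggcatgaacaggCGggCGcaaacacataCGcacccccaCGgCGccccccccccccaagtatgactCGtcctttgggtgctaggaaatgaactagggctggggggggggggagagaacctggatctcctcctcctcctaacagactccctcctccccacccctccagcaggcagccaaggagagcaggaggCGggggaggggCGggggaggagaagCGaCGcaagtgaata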

How the data were processed

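The genes and the lists were chosen with earlier results of these data known, and beyond them the nearest listed gene on each side of a member and the 2 genes most like it were named by rule. A further gene was left out of the lists and of their counts and is not reported here. According to the methods, the authors aligned reads with STAR 2.4.2a to a genome with strain variants masked, after removing ribosomal reads with Bowtie2 2.3.2, split them by allele with SNPsplit, and counted them over genes with featureCounts.

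The deposited allelic values are a fraction, Xi reads over Xi plus Xa reads, which the authors computed per library for genes passing their read filter, and they were used untransformed. The RPKM column was computed by the authors from an unnamed library and used only to rank genes. The tables also hold 2 difference columns and a p-value column, computed by the authors from the same ratios, and these columns were not used. The methods call the libraries of the *Suz12* table biological replicates.

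Differences were tested on the ratios with limma 3.58.1 in R 4.3.3, with Benjamini-Hochberg adjustment over all genes of a table. The *Lbr* null clones supply a NoDox and a Dox library each. Residuals of the same clone correlated at r of -0.113 to 0.0283, and the clones were fitted unpaired. Of 12 and 6 pairs of libraries within a group, 0 were identical. Alternatives tried were the log2 ratio of Xi to Xa, only genes with a NoDox ratio of 0.2 to 0.8, a trended and robust variance model, a replicate block, the Student statistic, leaving out each library, and leaving out the third library of every group. The comparison of Dox libraries alone was added after its values were seen. Coordinates in the tables were read as counting from 0 and are given counting from 1. The transgene location was taken from the study's methods. Sample titles give 3 days and the time course labels 72 h of doxycycline, which were used, while the growth protocol gives a shorter treatment. Other tools were Python 3.11.15, numpy 2.4.6, pandas 2.3.3 and matplotlib 3.10.9.

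Several limits apply. A difference between *Suz12* null and WT cells rests on 1 null line, so line and deletion cannot be separated. The WT pair has 1 library per state, and its library type is uncertain. Depth is unknown, so noisy and precise ratios were weighted alike. The ratios do not say whether less Xi RNA reflects fewer silenced cells or less transcription per cell, nor whether total RNA of a gene changed. *Sox2* and *Fgf2* have no ratio. Whether the methods' floor of 10 reads left them out is not stated.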

Additional observations from a re-analysis of the deposited data

Results flagged for a closer look

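Over all 538 genes, limma called 2 for a difference in silencing between *Suz12* null and WT cells, and neither belongs to the genes chosen by name. They were named after their values were seen. *Nup210l* was at 0.495, 0.466 and 0.463 without Dox and at 0.138, 0.121 and 0.173 with Dox in WT cells. In *Suz12* null cells it was at 0.346, 0.355 and 0.392 without Dox and at 0.252, 0.271 and 0.295 with Dox. It thus began lower and ended higher in *Suz12* null cells, without overlap of the lines in either state, and the difference of z was 0.239 (SE 0.0279, limma adjusted p = 0.00286). *Gpr89* reached 0.824 without Dox in WT cells, and all 3 of these libraries lay above the WT Dox libraries, at 0.548 to 0.619. In *Suz12* null cells it was at 0.750, 0.769 and 0.750 without Dox and at 0.824, 0.733 and 0.818 with Dox. The *Suz12* null groups overlapped, and the difference of z was 0.258 (SE 0.0363, limma adjusted p = 0.00763). All *Gpr89* ratios equal fractions of small whole numbers, as few allele-specific reads would give. This call may therefore rest on shallow counts, and its SE may understate the noise. The call of *Gpr89* was lost with a replicate block (limma adjusted p = 0.120) and without the third library of every group (0.114), and under the Student statistic with adjustment (0.0984). That of *Nup210l* held in every alternative. The cause was not tested.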

How the results depend on the processing

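Calls of *Notch2*, *Lef1* and *Tet2* on Dox against NoDox held in every alternative fitted for them in WT, *Suz12* null and *Lbr* null cells. The Student statistic was applied only to the difference in silencing between *Suz12* null and WT cells. Fits without the third libraries were made only in the first table. Without 1 library at a time the *Notch2* difference in silencing between *Suz12* null and WT cells ran from -0.0132 (without Suz12 null Dox replicate 3) to 0.0353, and against the WT pair in *Lbr* null clones from -0.00649 to 0.00531 (without replicate 3). The *Tet2* NoDox difference ran from -0.0159 (without Suz12 null NoDox replicate 3) to 0.0233 and was -0.00927 without the third library of every group. The *Tet2* difference on Dox ran from 0.103 to 0.143, and that of *Lef1* from -0.0428 to 0.00358 (without WT Dox replicate 3). The *Tet2* difference in silencing of 0.115 passed under the Student statistic when no adjustment was made, a statistic that leaves out the spread of the NoDox libraries.

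Among weakly silenced list genes the WT z of *Il6ra* ran from -0.118 to 0.00231 without 1 library (positive without WT Dox replicate 3) and was 0.0521 without the third libraries. In *Suz12* null cells *Il6ra* ran from -0.147 to 0.00477 (without NoDox replicate 1), *Skil* from -0.0103 to 0.0135, and *Rit1* from -0.0212 to 0.0515, with -0.0196 without the third libraries. The cause was not tested.

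Counts over 538 genes moved as follows. Genes higher on Dox in *Suz12* null cells numbered 0 to 1 without 1 library. For the difference in silencing, genes lower numbered 0 to 1, and the Student statistic without adjustment gave 10 lower and 106 higher. A replicate block gave 1 higher, as did the fit without the third libraries. For NoDox libraries, genes lower numbered 0 to 1 and higher 0 to 2 without 1 library (most without Suz12 null Dox replicate 3), and the block gave 1 lower and 2 higher. For Dox libraries, genes higher numbered 1 to 85 without 1 library and 27 without the third libraries. Genes lower numbered 0 to 1 without 1 library, 1 on the log2 scale, 1 in the block and 2 without the third libraries. Libraries of the same number were not paired in the first table, where their residuals correlated at r of -0.104 to 0.164.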
